A study of Mus musculus with 4 samples.

Results

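The genes described here are the Notch ligands Jag1, Dll1 and Dll4, the receptors Notch1, Notch2 and Notch4, the transcription factor Rbpj, and the target genes Hes1, Hey1 and Nrarp. They were picked by gene symbol from count tables of 18256 genes in mouse macrophages, and 9 of the 10 were found there. Nrarp was not analysed here. All libraries share a genotype and a culture: wild-type bone marrow cells, turned into macrophages over 7 days by macrophage colony-stimulating factor (MCSF) at 20 ng/ml. M0 libraries came from macrophages left unstimulated. M1 libraries came from macrophages given 20 ng/ml interferon-gamma (IFN-γ) and 100 ng/ml bacterial lipopolysaccharide (LPS) for the last 24 h, and the labels do not say whether MCSF stayed in that medium. There were 2 libraries in each group. Each library held 15921466 to 18987705 counts. No label says that the libraries of a group came from different animals or dishes, and a p-value here covers just the scatter of these libraries, which may be technical.

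Notch signalling passes between touching cells. A ligand of the Jagged or Delta-like family on the surface of a cell binds a Notch receptor on its neighbour, ADAM proteases and then γ-secretase cut the receptor, and the freed intracellular part enters the nucleus and joins RBPJ on DNA. Genes of the HES and HEY families, which encode transcriptional repressors, are the classical targets. In macrophages RBPJ is known for promoting inflammatory gene expression after Toll-like receptor signals, and HES1 and HEY1 are known as restraints on cytokine genes such as Il6 and Il12b. Earlier work on macrophages described IFN-γ as lowering Hes1 and Hey1. Here IFN-γ and LPS were given together, so the effects of each cannot be told apart.

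Among tested genes of the set, ligand, receptor and transcription factor transcripts that changed were higher in M1, and target transcripts were lower. The ligand Jag2, which is outside the set, was lower. Jag1, Notch1 and Rbpj rose, Hes1 and Hey1 fell, and Notch2 and Notch4 did not pass the threshold. Dll1 and Dll4 were too sparse to test. Of the 7 tested genes, 3 were higher and 2 lower (edgeR quasi-likelihood test, adjusted p under 0.05 over all 12966 tested genes). Over all tested genes 48.2% passed, 24.2% as higher and 24.0% as lower, so a call by itself is common in this comparison. Of all calls 50.2% were higher, and 29.8% with library totals as the only scaling, under which the directions and calls of the 5 genes stayed. Without M0 replicate 1 the call of Hes1 was lost, and without M1 replicate 1 Notch2 and Notch4 also passed as higher. The 5 genes called also passed a test against a fold of 2 (edgeR glmTreat against a log2 fold change of 1), which 12.9% of tested genes did. The libraries of M0 and M1 did not overlap for any of the 7 genes, as for 74.9% of tested genes.

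Sequence upstream of an annotated transcription start is shown for the 3 genes that rose and for Notch2 and Notch4, the receptors that did not pass. Each run is the part of the RefSeq promoter window (GRCm38.p6, up to 250 bases before the start) that lies ahead of the first GENCODE M21 exon within that window, written 5′ to 3′ on the strand of the gene. Rbpj has 2 windows, both at starts inside the annotated gene, and the run shown is from the upstream one of them. Capitals mark matches, on either strand, to the RBPJ core motif TGGGAA, to an NF-kB motif written GGAANNNCC and to an interferon-stimulated response element (ISRE) written GAAANNGAA.
Rbpj, chr5:53590096-53590213, plus strand: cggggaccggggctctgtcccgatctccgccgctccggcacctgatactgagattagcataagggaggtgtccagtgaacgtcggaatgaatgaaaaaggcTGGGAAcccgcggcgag
Notch1, chr2:26503825-26504072, minus strand: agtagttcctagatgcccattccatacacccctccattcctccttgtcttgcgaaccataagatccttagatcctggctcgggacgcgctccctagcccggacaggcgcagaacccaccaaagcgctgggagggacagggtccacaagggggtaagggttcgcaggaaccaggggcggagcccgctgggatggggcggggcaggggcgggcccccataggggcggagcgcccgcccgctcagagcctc
Notch2, chr3:98013288-98013526, plus strand: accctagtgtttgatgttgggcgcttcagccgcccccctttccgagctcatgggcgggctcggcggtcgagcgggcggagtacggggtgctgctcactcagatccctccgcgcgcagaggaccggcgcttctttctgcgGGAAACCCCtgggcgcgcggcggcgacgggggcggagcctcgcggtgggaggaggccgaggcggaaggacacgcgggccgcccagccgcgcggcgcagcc
Notch4, chr17:34564045-34564267, plus strand: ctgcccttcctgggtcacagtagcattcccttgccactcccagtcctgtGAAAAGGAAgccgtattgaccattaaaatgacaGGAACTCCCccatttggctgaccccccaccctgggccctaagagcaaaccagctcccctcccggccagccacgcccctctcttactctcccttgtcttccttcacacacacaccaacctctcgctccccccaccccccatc
Jag1, chr2:137116645-137116770, minus strand: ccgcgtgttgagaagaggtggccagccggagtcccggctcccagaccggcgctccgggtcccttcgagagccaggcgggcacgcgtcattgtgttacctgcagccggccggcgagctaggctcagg

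In the whole window of 300 bases (250 before the start and 50 after it), that of Rbpj held the RBPJ core at positions -149 and -65 from its start, the first of which is in the run printed above. That motif was present in 25.6% of the 32851 windows of all genes. The NF-kB matches of Notch2 and Notch4 began at -111 and -168, and 18.5% of all windows held one. The ISRE motif, present in 8.56% of windows, matched at -201 in Notch4 and at -72 in Jag1, the latter outside the run shown. A gamma-activated site, searched as TTCNNNGAA and present in 8.30% of windows, had no match in the windows of these 5 genes, and the window of Notch1 held none of the 4 motifs. Some matches can overlap other motifs, and each is a match of letters only. Hes1 and Hey1 had no entry in the promoter table.

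Among ligands, Jag1 (chromosome 2, 137081451 to 137116520) had 510 and 356 counts in M0 replicates 1 and 2 and 1228 and 1449 in M1 replicates 1 and 2. Scaled for depth, these were 24.4 and 20.6 CPM (depth-scaled counts, relative to library size) in M0 and 75.6 and 89.1 CPM in M1. Each M1 library was well above each M0 library, and the mean rose from 22.5 ± 2.70 to 82.4 ± 9.58 CPM (SD, n = 2 libraries per group here and below). The log2 fold change of Jag1 was 1.87 (SE 0.138, adjusted p = 8.07e-07). It was the largest rise among the 7 tested genes.

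Delta-like ligands were close to undetected. Dll1, a ligand known from marginal zone B cell development, had 1 and 2 counts in M0 and 2 and 7 in M1. Over the groups that is 3 and 9 counts, a ratio of 3.52 with an exact 95% binomial interval of 0.878 to 20.2, which covers counting error only and includes no change. Dll4, the ligand that guides endothelial sprouting, had 4 counts in M0 replicate 2 and 0 in the other 3 libraries. A level of 3 counts corresponds to 0.144 to 0.185 CPM in these libraries, so a fall in Dll4 was not measurable at this depth. Neither M1 library held a Dll4 count, so no rise to that level was seen. Annotated genes on the opposite strand cover 20.5% of the exon bases of Dll1 and 5.56% of those of Dll4, and the strand setting of the counting is not given in the sources used here.

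**Figure D1:**
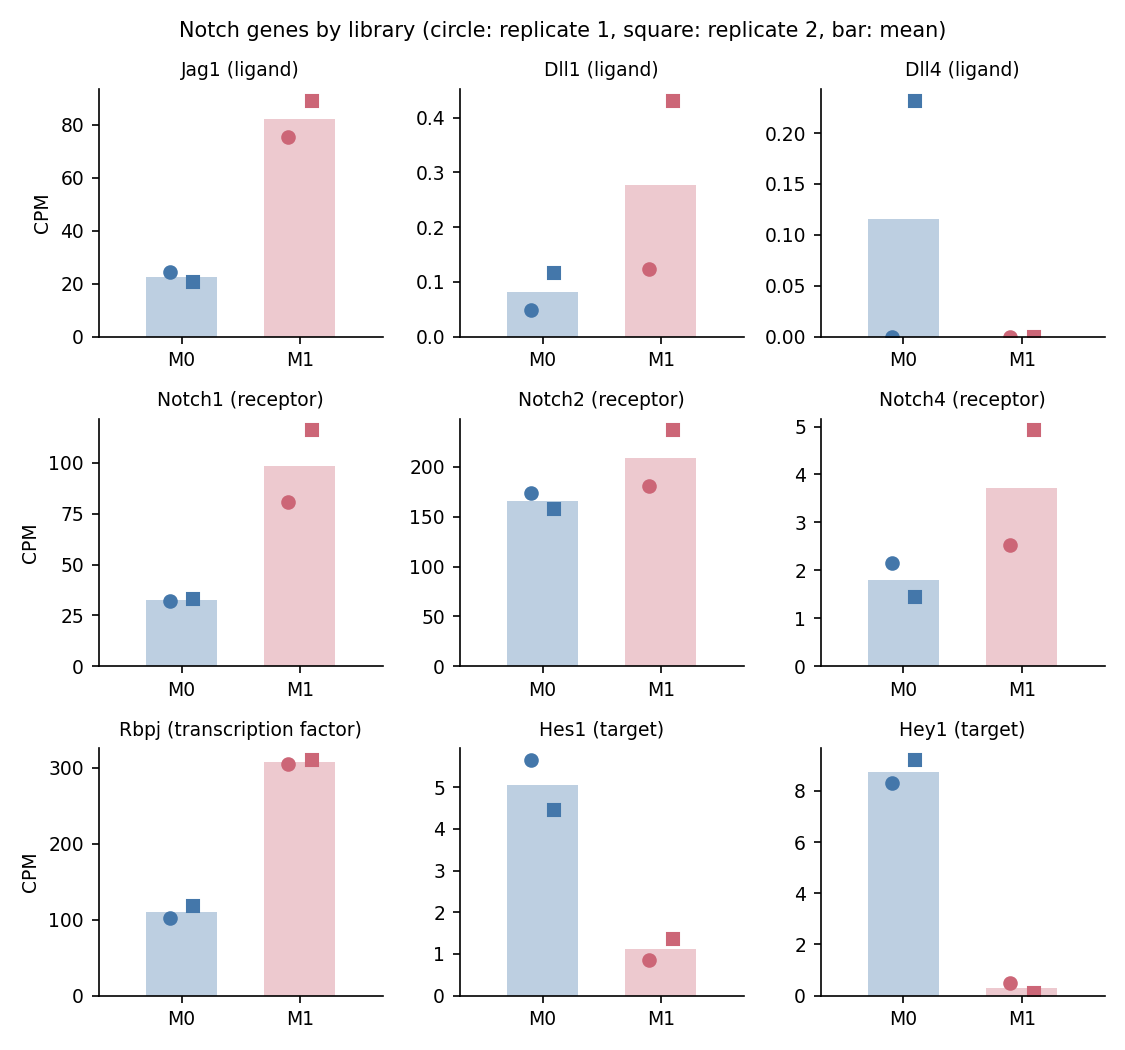
Depth-scaled counts (CPM, linear axes from 0, a scale of its own per gene) of the 9 Notch genes in the M0 and M1 libraries, with circles for replicate 1, squares for replicate 2 and bars for the group mean. Jag1, Notch1 and Rbpj were higher in each M1 library than in each M0 library, Hes1 and Hey1 were lower, and Dll1 and Dll4 stayed below 0.5 CPM in every library.

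Receptor transcripts differed in how far they moved. Notch1 (chromosome 2, 26457902 to 26503822) had 31.9 and 33.1 CPM in the M0 libraries and 80.6 and 116 CPM in the M1 libraries. The M0 values lay close together, whereas M1 replicate 2 stood above M1 replicate 1. Notch1 rose from 32.5 ± 0.851 to 98.4 ± 25.1 CPM, with a log2 fold change of 1.6 (SE 0.161, adjusted p = 1.06e-05). Genes on the opposite strand cover 9.76% of its exon bases.

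Notch2 (chromosome 3, 98013538 to 98150367), the receptor with the most counts here, had 174 and 158 CPM in M0 and 181 and 237 CPM in M1. Its lowest M1 library was just above its highest M0 library. The log2 fold change was 0.33 (95% interval 0.05 to 0.62, adjusted p = 0.051), so Notch2 missed the threshold narrowly. Gm42820 on the same strand covers 5.02% of its exon bases. Notch2 passed as higher with relative log expression factors (adjusted p = 0.0453), DESeq2 (0.0391), no low-count filter (0.016), a stricter filter (0.0485) and thinning (0.0472). It did not with upper-quartile factors (0.155), library totals (0.62), limma-voom (0.0524) or the replicate block (0.0525), nor against a fold of 2. The log2 fold change was 0.51 without M1 replicate 1 and 0.13 without M1 replicate 2.

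Notch4 (chromosome 17, 34564286 to 34588543), a receptor best known in endothelium, was low, with 45 and 25 counts in M0 and 41 and 80 in M1. On the depth-scaled scale this was 2.16 and 1.45 CPM in M0 and 2.52 and 4.92 CPM in M1. M1 replicate 2 alone carried most of the difference. The log2 fold change was 1.03 (95% interval 0.03 to 2.04, adjusted p = 0.0836). Without M1 replicate 2 it was 0.48 (adjusted p = 0.5), and without M1 replicate 1 it was 1.43 and passed (adjusted p = 0.0289). It also passed without the low-count filter (adjusted p = 0.0385). With every library kept, the other tests of no change gave adjusted p of up to 0.175 (library totals). The test against a fold of 2, a different question, gave 0.992.

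Notch1, Notch2 and Notch4 were each highest in M1 replicate 2. Because of that shared library, ratios within a library were also taken, per kb of the longest coding transcript in GENCODE M21. Per kb, Notch1 stood at 0.203 and 0.232 of Notch2 in M0 and at 0.493 and 0.542 in M1. The ratio was higher in each M1 library, and the M1 libraries differed little in it. As shares of the 4 Notch receptor transcripts, scaled by length, Notch1 made up 16.6% and 18.6% in M0 and 32.5% and 34.4% in M1. Notch2 made up 81.5% and 80% in M0 and 66.0% and 63.5% in M1. Notch3, the remaining receptor and no member of the set, had 10 and 7 counts in M0 and 0 in both M1 libraries. With M1 set at 3 counts over the group, that is 4.83-fold lower, without allowance for error in the M0 counts. Notch3 was not tested.

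Ligand transcripts changed composition as well. Jag2, the other Jagged ligand, had 40.7 and 35.7 CPM in M0 and 21.7 and 22.8 CPM in M1. It fell while Jag1 rose (log2 fold change of Jag2 -0.78, SE 0.139, adjusted p = 0.000805). Per kb, Jag1 was at 0.547 and 0.525 of Jag2 in M0 and at 3.17 and 3.55 of it in M1. Jag1 accordingly went from 35.3% and 34.1% of length-scaled ligand transcripts in M0 to 75.8% and 77.6% in M1. Dll1, Dll3 and Dll4 each stayed below 1% in every library.

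**Figure D2:**
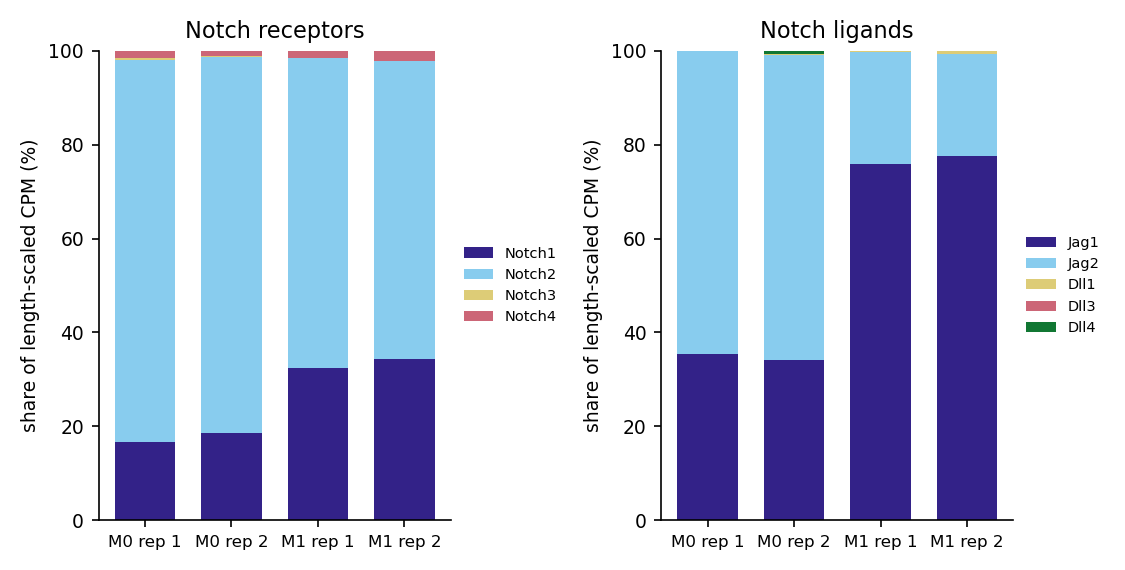
Share (%) of length-scaled CPM held by each Notch receptor (left) and each Jagged or Delta-like ligand (right) in the 4 libraries, as stacked bars that sum to 100%. Notch1 took 16.6% to 18.6% of receptor transcripts in M0 and 32.5% to 34.4% in M1, and Jag1 took 34.1% to 35.3% of ligand transcripts in M0 and 75.8% to 77.6% in M1.

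Rbpj (chromosome 5, 53555779 to 53657445), the DNA-binding factor shared by all Notch receptors, had 102 and 118 CPM in M0 and 305 and 310 CPM in M1. The M1 libraries nearly coincided, and the mean rose from 110 ± 11.0 to 308 ± 3.56 CPM, with a log2 fold change of 1.48 (SE 0.104, adjusted p = 5.16e-07). Rbpj has pseudogenes, and 24.3% of the 50-base stretches of its longest transcript also occur in transcripts of other genes. Its processed pseudogene Rbpj-ps3 was listed with 649 and 459 counts in M0 and 1092 and 1591 in M1, 18.0% to 24.0% of the sum of both genes, and how the counting divided such reads is not given in the sources used here. With both summed, an alternative added after the data were seen, the log2 fold change was 1.49 (adjusted p = 3.87e-07).

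Target genes went the other way. Hes1 (chromosome 16, 30065357 to 30067796), a repressor that also acts on its own promoter, had 118 and 77 counts in M0 and 14 and 22 in M1. Depth-scaled, this was 5.66 and 4.46 CPM against 0.862 and 1.35 CPM. Every M0 library was above every M1 library, and the mean fell from 5.06 ± 0.845 to 1.11 ± 0.348 CPM. The log2 fold change of Hes1 was -2.19 (SE 0.411, adjusted p = 0.00117). Without M0 replicate 1 it was -2.0 and no longer passed (adjusted p = 0.0536), and over the alternatives the adjusted p ranged from 6.75e-06 to 0.0536.

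Hey1 (chromosome 3, 8663359 to 8667038), a related repressor, showed the largest fall. Its counts were 173 and 159 in M0 and 8 and 2 in M1, or 8.29 and 9.21 CPM against 0.492 and 0.123 CPM. The M1 replicate 2 value lies below the level of 3 counts, so the fold is poorly bounded. The log2 fold change of Hey1 was -4.80 (95% interval -5.84 to -3.76, adjusted p = 8.52e-06), a level 27.8-fold lower in M1. It was -6.08 without M1 replicate 1 and -4.13 without M1 replicate 2. In bulk samples, fewer cells of a type and less RNA per cell cannot be told apart.

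Of 8 macrophage markers, 4 were called higher, 2 were called lower (Cd68 and Mertk) and 2 did not pass. Csf1r, the MCSF receptor gene, averaged 3401 ± 30.4 CPM in M0 libraries and 3101 ± 239 CPM in M1 libraries, and did not pass (adjusted p = 0.266). Of the markers of stimulation, Nos2 and Il12b rose in M1 and Mrc1, a marker of alternative activation, fell. Jag1, Notch1, Notch4 and Hey1 are also genes of endothelium and stroma, so markers of those cells are set beside them, with single genes chosen after their values were seen. Of 8 endothelial markers 7 were in the files and 5 were tested, 3 as higher and 1 as lower. Tek was at 0 in every library, Tie1 had at most 0.123 CPM, and the summed level was 31.1 to 33.7 CPM in M0 and 21.5 to 26.7 CPM in M1, mostly Vwf in M0. Vwf was the marker called lower, with a mean of 25.0 ± 0.970 CPM in M0 and 2.92 ± 0.303 CPM in M1. Kdr was called higher, with a mean of 3.73 ± 0.689 CPM in M0 and 12.5 ± 2.65 CPM in M1. Cdh5 was called higher too, from 4 and 0 counts in M0 to 22 and 13 in M1. Its log2 fold change was 3.30 (edgeR quasi-likelihood test, adjusted p = 0.0180). Pecam1 was also called higher, at 2.50 ± 0.149 and 6.89 ± 1.3 CPM, but not without M0 replicate 1 (adjusted p = 0.0611). All 8 stromal markers were in the files, with a summed level of 794 to 796 CPM in M0 and 490.5 to 553 CPM in M1, mostly Col1a1 and Col1a2. Of the 7 tested, 3 were called higher (Col3a1, Dcn and Pdgfrb) and 4 lower (Col1a1, Col1a2, Cxcl12 and Acta2), and Lepr was at 0 in M1. The part of such cells in the Notch gene results was not tested. B cell, T and NK cell and dendritic cell lists summed to at most 6.47, 23.3 and 10.1 CPM in any library. Ms4a1, Cd3g and Ncr1 were at 0 throughout. Cd79b had 103 and 74 counts in M0 and 62 and 20 in M1. Lck had 18 and 0 counts in M0 and 20 and 18 in M1, and neither gene passed. Cd4 made up most of the T and NK cell sum, and it was called lower, its mean falling from 21.4 ± 0.144 to 4.74 ± 0.259 CPM. Of 5 tested dendritic cell markers, Ccr7 and Xcr1 were called higher, and Siglech, Cd209a and Zbtb46 lower. Their log2 fold changes were 9.37, 4.55, -5.16, -7.43 and -2.10, in that order. Ccr7 had no count in M0 and Cd209a none in M1, so those folds are poorly bounded. Neutrophil markers summed to 236 to 248 CPM in M0 and 110 to 149.5 CPM in M1. Of the 7 tested, 1 was called higher (Camp), 5 were called lower and 1 did not pass (S100a8).

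**Figure D3:**
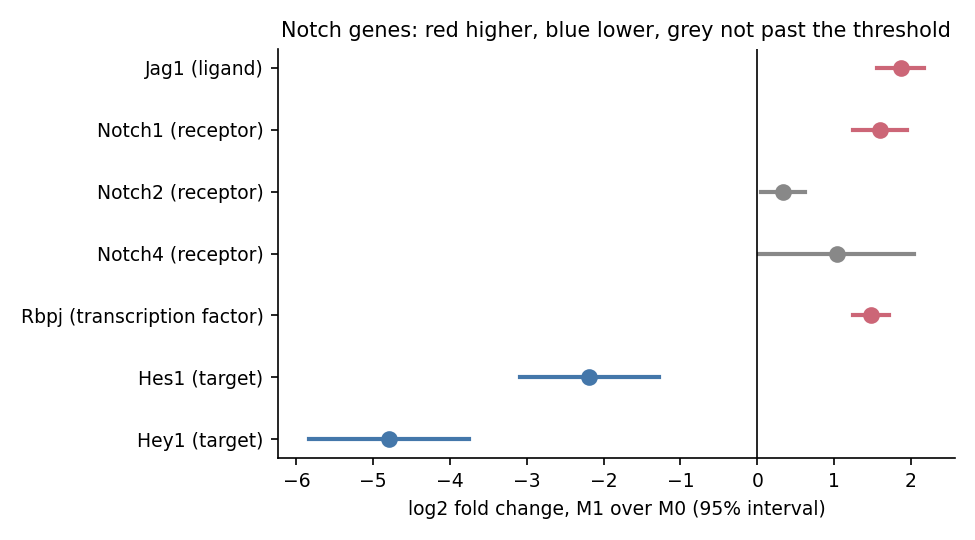
Fitted log2 fold change of M1 over M0 (dots) with its 95% interval (lines) for the 7 tested Notch genes, in red where higher, blue where lower and grey where the adjusted p missed 0.05. Jag1, Notch1 and Rbpj lie between 1.48 and 1.87, Hes1 and Hey1 at -2.19 and -4.80, and the intervals of Notch2 and Notch4 come close to 0.

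Levels were ordered per kb of the longest coding transcript. In M0 the order of mean CPM per kb was Rbpj at 20.1 ± 2.00, Notch2 at 15.8 ± 1.08, Jag1 at 4.02 ± 0.482, Hey1 at 3.61 ± 0.268, Hes1 at 3.45 ± 0.576, Notch1 at 3.42 ± 0.0897 and Notch4 at 0.274 ± 0.076. Jag1 and Hey1, Hey1 and Hes1, and Hes1 and Notch1 overlapped as neighbours in this order, while Notch2 stood apart above them and Notch4 below. In M1 the order was Rbpj at 56.1 ± 0.65, Notch2 at 19.9 ± 3.76, Jag1 at 14.7 ± 1.71, Notch1 at 10.4 ± 2.64, Hes1 at 0.754 ± 0.237, Notch4 at 0.565 ± 0.257 and Hey1 at 0.127 ± 0.108. Neighbours did not overlap between Rbpj, Notch2, Jag1 and Notch1, while Hes1 and Notch4 overlapped. Dll1 and Dll4 were last in both groups. With all annotated exons merged as the length, Notch2 stood above Rbpj in M0.

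Set against Notch1 in the same library, Hes1 was at 1.15 and 0.872 of its level per kb in M0 and at 0.0691 and 0.0754 in M1. Against Rbpj, Hey1 was at 0.183 and 0.177 in M0 and at 0.00365 and 0.000898 in M1. These ratios do not depend on the scaling of libraries. That the M0 and M1 libraries did not overlap in either follows from the opposite directions of these genes given above.

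The genes with the most similar profile were sought by distance in centred log2 CPM over the 4 libraries. For Jag1 these were 6330418K02Rik, Ptprn and Gas7 (distances 0.0321, 0.0334 and 0.102), and 219 tested genes lay within 0.5. A prior count of 2 was added before taking logs, which shrinks differences of low genes: 6330418K02Rik averaged 0.26 CPM in M0 and 1.23 CPM in M1, with a fitted log2 fold change of 2.20. For Hey1 they were P2ry1, Neil2 and Acss1 (distances 0.236, 0.285 and 0.417), and only 4 tested genes lay within 0.5.

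Other genes of the pathway were taken from 8 lists by role, 64 genes in all, of which 62 were in the files and 53 were tested. Of these, 24 fell (45.3%, against 24.0% of all tested genes), 9 rose (17.0%, against 24.2%) and 20 did not pass. Their median log2 fold change was -0.29, and that of all tested genes was -0.02. The lists were chosen with earlier results of these data known, so these shares are descriptive. Without M0 replicate 1 the lists had 13 falls and 7 rises, where 11.6% of all tested genes were lower and 13.3% higher. Without M0 replicate 2 they had 12 and 6, beside 12.9% and 14.7%. With library totals as the only scaling there were 32 falls and 7 rises, beside 36.8% and 15.6%.

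A ligand needs to be ubiquitinated to pull on its receptor. Of 6 genes of the Mib and Neurl families listed for that step, 4 fell and 0 rose. Whether each of them acts on Notch ligands was not tested. Falls were 66.7% of the list, against 24.0% of all tested genes, and the median log2 fold change was -0.93. Neurl1b fell from 3.67 ± 1.12 to 0.677 ± 0.261 CPM, a log2 fold change of -2.42. Leaving out M0 replicate 2 ended that call (adjusted p = 0.0678). Mib2 fell from 54.5 ± 2.45 to 24.2 ± 0.402 CPM (-1.17). Neurl2 was called lower (-1.32), but the call was lost without M0 replicate 1 (adjusted p = 0.0679), M0 replicate 2 (0.305) or M1 replicate 2 (0.127), and exons of Ctsa on the opposite strand cover 32.0% of its exon bases. Mib1, a ligase of both ligand families that was named after its values were seen, fell from 237 ± 32.9 to 148 ± 0.979 CPM (-0.68).

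Enzymes that glycosylate or mature the receptors fell in 3 of 6 cases and rose in 1 (median log2 fold change -0.36). As shares these were 50% and 16.7%, beside 24.0% lower and 24.2% higher of all tested genes. Lfng, a fringe glycosyltransferase that sets how receptors respond to Delta-like and Jagged ligands, fell from 80.2 ± 2.48 to 39.9 ± 0.0259 CPM, with a log2 fold change of -1.01 (adjusted p = 2.05e-05). The related Rfng was lower by the test (-0.62), without the call when M0 replicate 1, M0 replicate 2 or M1 replicate 1 was left out (adjusted p = 0.0824, 0.118 and 0.0714). Pofut1, which adds O-fucose to Notch, was called higher (0.43), and that call was lost without M0 replicate 1 (adjusted p = 0.24), M0 replicate 2 (0.0937) or M1 replicate 2 (0.119), with upper-quartile factors (0.0541) and with library totals (0.267).

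Proteases split evenly, with 3 rises, 3 falls and 3 genes not past the threshold (median log2 fold change -0.24). Each direction held 33.3% of the list, beside 24.2% higher and 24.0% lower of all tested genes. Ncstn, which encodes the nicastrin subunit of γ-secretase, rose from 171 ± 5.95 to 273 ± 12.4 CPM (0.67 on the log2 scale). Aph1c, which encodes a form of the APH1 subunit, fell from 115 ± 4.57 to 9.63 ± 0.396 CPM (-3.57, adjusted p = 1.97e-09). It shares 18.5% of its 50-base stretches with Aph1b and is uncertain to that extent. The sheddases, named after their values were seen, moved apart: Adam17 rose from 336 ± 0.762 to 503 ± 13.4 CPM (0.58) and Adam10, the main sheddase of ligand-bound Notch, fell from 323 ± 14.8 to 206 ± 10.0 CPM (-0.65).

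Nuclear coactivators had 2 rises and 3 falls among 8 (median log2 fold change -0.18). These were 25% and 37.5% of the list, beside 24.2% higher and 24.0% lower of all tested genes. Maml2 and Maml3, Mastermind-like partners of the Notch and RBPJ complex, were lower (log2 fold changes -0.78 and -0.64). Both calls were lost without M0 replicate 1 (adjusted p = 0.0647 and 0.0868) or M0 replicate 2 (0.108 and 0.14), and that of Maml3 also without M1 replicate 1 (0.0657) or M1 replicate 2 (0.075) and with DESeq2 (0.0832). Snw1 was higher (0.72), although exons of Slirp on the opposite strand cover 44.2% of its exon bases and 57.1% of its 50-base stretches occur in other annotated transcripts. The acetyltransferase gene Kat2b was higher (0.60), and leaving out M0 replicate 2 ended the call (adjusted p = 0.0788).

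Corepressors, which hold RBPJ targets off, had 2 rises and 4 falls among 14 (median log2 fold change -0.09). Rises were 14.3% and falls 28.6% of the list, beside 24.2% and 24.0% of all tested genes. Tle1 and Tle2, of the Groucho family that HES proteins recruit, both fell. Tle1 went from 53.4 ± 3.54 to 21.8 ± 1.14 CPM (-1.29 on the log2 scale), and Tle2 from 7.67 ± 2.51 to 3.11 ± 0.825 CPM (-1.3). The call of Tle2 was lost without M0 replicate 2 (adjusted p = 0.15). The histone deacetylase gene Hdac1 rose from 21.6 ± 0.361 to 53.7 ± 2.20 CPM (1.31), and it is uncertain because 58.7% of its 50-base stretches occur in other annotated transcripts. Hdac2 was called higher (0.41), without the call when M0 replicate 1 (adjusted p = 0.107) or M0 replicate 2 (0.053) was left out or library totals were used (0.204).

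Genes of receptor trafficking and turnover fell in 5 of 8 tested cases and rose in 1 (median log2 fold change -0.61). Falls were 62.5% and rises 12.5% of those tested, beside 24.0% and 24.2% of all tested genes. Dtx2, a Deltex ubiquitin ligase that binds Notch, rose from 10.9 ± 1.68 to 69.5 ± 3.51 CPM, with a log2 fold change of 2.67 (adjusted p = 6.63e-08), the largest rise in these lists. Its relative Dtx4 fell from 141 ± 6.82 to 44.2 ± 1.37 CPM (-1.67, adjusted p = 2.37e-07). Nedd4, another ubiquitin ligase, fell from 61.2 ± 4.14 to 20.4 ± 1.47 CPM (-1.59).

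Of the other HES and HEY genes 1 could be tested. Hes6, which is not a typical Notch target, was lower (log2 fold change -0.68, adjusted p = 0.0127), and the call was lost without M0 replicate 1 (adjusted p = 0.126), M0 replicate 2 (0.0552) or M1 replicate 1 (0.0592). Hey2 had 10 counts over the M0 libraries and 0 over the M1 libraries, and Heyl had 4 and 0.

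**Figure D4:**
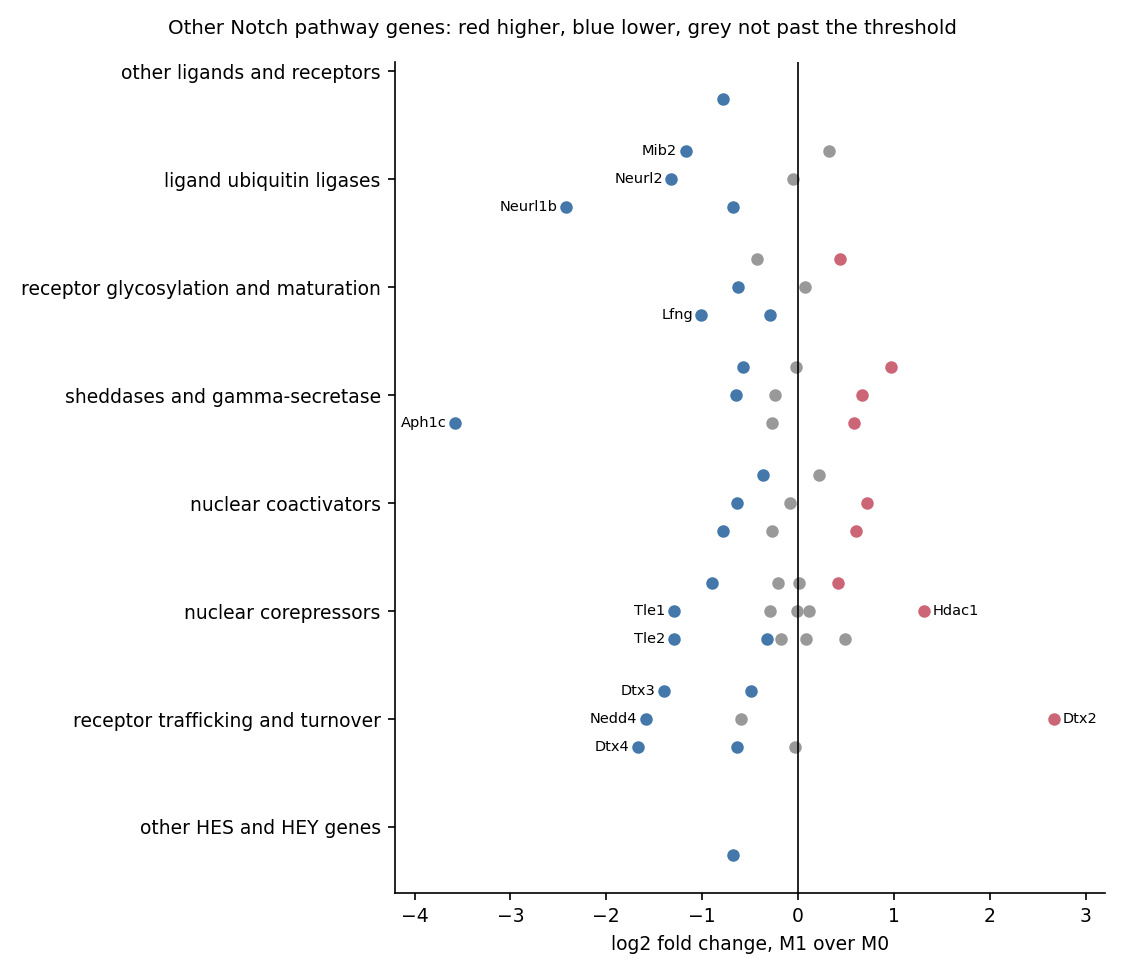
Fitted log2 fold change of M1 over M0 for the 53 tested genes of the 8 pathway lists, 1 row per list with dots spread vertically only for legibility, in red where higher, blue where lower and grey where the adjusted p missed 0.05. Names are given beyond a log2 fold change of 1 in either direction: Dtx2 lies farthest right at 2.67 and Aph1c farthest left at -3.57.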

How the data were processed

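The authors deposited raw counts, 1 value for each gene symbol and library. The submitters' processing notes name featureCounts (Subread 2.0.1), the mm10 build, DESeq2 1.30.1 and R 4.0.4. RNA was total RNA depleted of ribosomal RNA, per the labels' protocols. Aligner, annotation and strand setting are not given in the sources used here.

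Genes were filtered with filterByExpr (minimum count 10, minimum total 15), which kept 12966 of 18256, and the groups were tested with the quasi-likelihood test of edgeR 4.0.16 (R 4.3.3, TMM factors, group as the only term). Adjusted p-values are Benjamini-Hochberg values across the whole table of tested genes, called under 0.05. The script was tested on simulated data. CPM uses library totals times TMM factors of 0.911 to 1.10. The common dispersion was 0.0118. Replicate libraries were not duplicates (chi-square over degrees of freedom 7.76 in M0 and 10.9 in M1). Gene positions and promoters are from RefSeq (GRCm38.p6), exon overlaps and transcript lengths from GENCODE M21 on the same assembly, and 8 of the 10 symbols had promoter windows.

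The members and lists were chosen with earlier results of these data known. The naming rule takes every member, and per list up to 3 called genes of largest change and up to 2 called against the majority. Adam10, Adam17, Mib1, Furin, Notch3, Hey2, Heyl, Rbpj-ps3 and single cell type markers were named after their values were seen. The alternatives changed the scaling (relative log expression, upper quartile, library totals), the tool (DESeq2 1.42.0, limma-voom of limma 3.58.1, glmTreat), the filter (none, or at least 50 counts and 1 CPM in 2 libraries), the depth (thinned to the smallest total), the replicate block and the libraries kept. Merging exons for length and summing Rbpj with Rbpj-ps3 were added after seeing the data. Single members of 2 lists are counted in their lists but not reported here by name.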

Additional observations from a re-analysis of the deposited data

How the results depend on the processing

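None of the 7 tested members reversed direction under the 14 alternatives. Jag1, Notch1, Rbpj and Hey1 stayed past the threshold in all of them, with lowest and highest log2 fold changes of 1.61 and 2.00, 1.32 and 1.83, 1.23 and 1.59, and -6.08 and -4.13. The count of members called higher was 5 instead of 3 without the low-count filter, with Notch2 and Notch4 added, and the cause was not tested. Leaving out a library gave 3 to 5 members higher and 1 to 2 lower, 6 to 10 pathway genes higher and 12 to 22 lower, and 1722 to 2889 of all genes higher and 1508 to 2858 lower. In those fits the lone library of a group is assumed to vary like the other group. Library totals as the only scaling gave 2024 genes higher and 4776 lower, so 29.8% of calls were higher instead of 50.2%, and shifted the median over all genes by -0.252 (log2), while upper-quartile factors shifted it by -0.104. Against a fold of 2 there were 872 and 798 genes and 2 and 6 pathway genes, because that test asks for larger changes. Replicate numbers are shared by the groups, but same-numbered libraries did not deviate together (correlation across genes -0.0757), and the replicate block gave 2957 higher and 2974 lower genes, the same 3 and 2 member calls in number, and cost 1 pathway gene, Furin, its call (adjusted p = 0.0879). Depth limits Dll1, Dll4, Hey1 in M1 and the untested HES and HEY genes.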
